A study of Homo sapiens with 12 samples.

Results

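The clade B serpins are a family of protease inhibitors that work inside cells, and 9 of them are described here over the 4 treatment groups of an array study of a breast epithelial line: SERPINB1, SERPINB2, SERPINB3, SERPINB4, SERPINB5, SERPINB7, SERPINB8, SERPINB9 and SERPINB13. Genes were found by symbol in the array's probe annotation, and where a gene has several probe sets the one brightest on average was chosen by its mean level. That annotation lists a probe set for 8 of the 9 genes, 1 each, among 18417 genes tested in all. SERPINB2, which encodes plasminogen activator inhibitor type 2, has no listed probe set and was not analysed here. The 9 genes were picked from the 13 of the clade with group results of these data known, so the counts below describe them and are not independent evidence that the family responds.

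The cells are MCF10A, a non-tumorigenic human breast epithelial line, stably expressing a full-length HER2 receptor fused to FKBP and an HA tag, and every group carries this chimera. Each group has 3 arrays: heregulin, a ligand of HER3 and HER4; TGF-alpha, a ligand of EGFR; AP1510, a synthetic bivalent compound that joins FKBP-tagged receptors into homodimers; and untreated cells. Cells of every group were maintained with 20 ng/ml EGF and 5% horse serum. From 24 hours before ligand all dishes were kept without serum and EGF. They were kept with cholera toxin (100 ng/ml), hydrocortisone (500 ng/ml) and insulin (10 ug/ml), and treated dishes were lysed for RNA at 48 hours. The sources used here do not give doses of the treatments, a vehicle, whether the line is 1 clone, or when untreated cells were harvested. In every comparison against untreated cells, ligand and time in culture therefore cannot be told apart.

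Serpins fold into a metastable shape with an exposed reactive centre loop. A protease that cuts this loop is carried across the molecule and trapped in a covalent complex, so each inhibitor molecule is used once. Members of clade B lack a classical secretion signal and act mostly in the cytosol and nucleus, where they restrain proteases that leak from granules and lysosomes, and several are abundant in squamous epithelium. In the mammary gland the best known member is SERPINB5, or maspin, which is made by myoepithelial and basal cells.

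The human genes lie in 2 clusters, 10 on chromosome 18 and 3 on chromosome 6. SERPINB3 and SERPINB4 are neighbours on chromosome 18 and arose by a recent duplication. They were first described together as the squamous cell carcinoma antigen. The 250 bases before each annotated start are shown because both genes rose with heregulin and these upstream windows are near copies. The sequences are from RefSeq (GRCh38.p14) and both lie on the minus strand, at chr18:63661894-63662143 for SERPINB3 and chr18:63644257-63644506 for SERPINB4. Capitals mark the bases that differ.
SERPINB3: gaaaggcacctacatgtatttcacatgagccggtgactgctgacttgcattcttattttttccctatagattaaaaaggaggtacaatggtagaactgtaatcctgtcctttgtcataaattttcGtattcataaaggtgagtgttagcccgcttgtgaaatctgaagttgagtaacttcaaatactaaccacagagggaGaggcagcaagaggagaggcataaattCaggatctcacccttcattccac
SERPINB4: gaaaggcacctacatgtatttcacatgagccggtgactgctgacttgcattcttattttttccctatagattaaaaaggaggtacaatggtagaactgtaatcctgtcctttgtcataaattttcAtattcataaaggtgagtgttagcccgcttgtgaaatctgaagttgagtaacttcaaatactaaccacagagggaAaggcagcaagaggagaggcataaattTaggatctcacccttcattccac
The windows differ at 3 of 250 bases and are 98.8% identical. With SERPINB3 first and positions counted from 1 at the 5′ end of the printed window, the differences are G126A, G201A and C228T. These windows lie outside the transcripts, and neither transcript nor probe sequences were compared here, so the share of each probe set's signal that could come from the other gene is unknown.

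The labelled cell type was checked against its markers. Of 10 basal epithelial markers 7 were measured, and all of these lay above the array median on at least 1 array. Of 7 luminal markers, all measured, the hormone receptor genes ESR1 and PGR lay below the median of tested genes on all 12 arrays, while KRT8, KRT18, KRT19, GATA3 and FOXA1 lay above it on all 12. The arrays thus carried signal for basal and for luminal keratin genes. Several clade B serpins are leukocyte genes, so leukocyte markers were read too. Of 8 measured, 6 lay below the median on every array, PTPRC among them, while CD68 lay above it on all 12. The means of CD68 were 7.92 with heregulin, 7.11 with TGF-alpha, 8.07 with AP1510 and 7.91 in untreated cells. The mean level of the 8 spanned 4.74 to 4.89 on heregulin arrays and 4.69 to 4.72 on TGF-alpha arrays. It spanned 4.79 to 4.85 on AP1510 arrays and 4.77 to 4.88 on untreated arrays. No deposited array duplicated another. The array medians over tested genes ran from 5.94 to 6.01 on the log2 scale, which is the yardstick used below for a dim probe set. SERPINB1, SERPINB5 and SERPINB8 lay above it on all 12 arrays, SERPINB3 on the 3 heregulin arrays alone, and SERPINB4, SERPINB7, SERPINB9 and SERPINB13 on none. No dim gene was left out of the main fit. All levels are log2 intensities of a single probe set, so a level is compared between groups and never between genes.

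**Figure D1:**
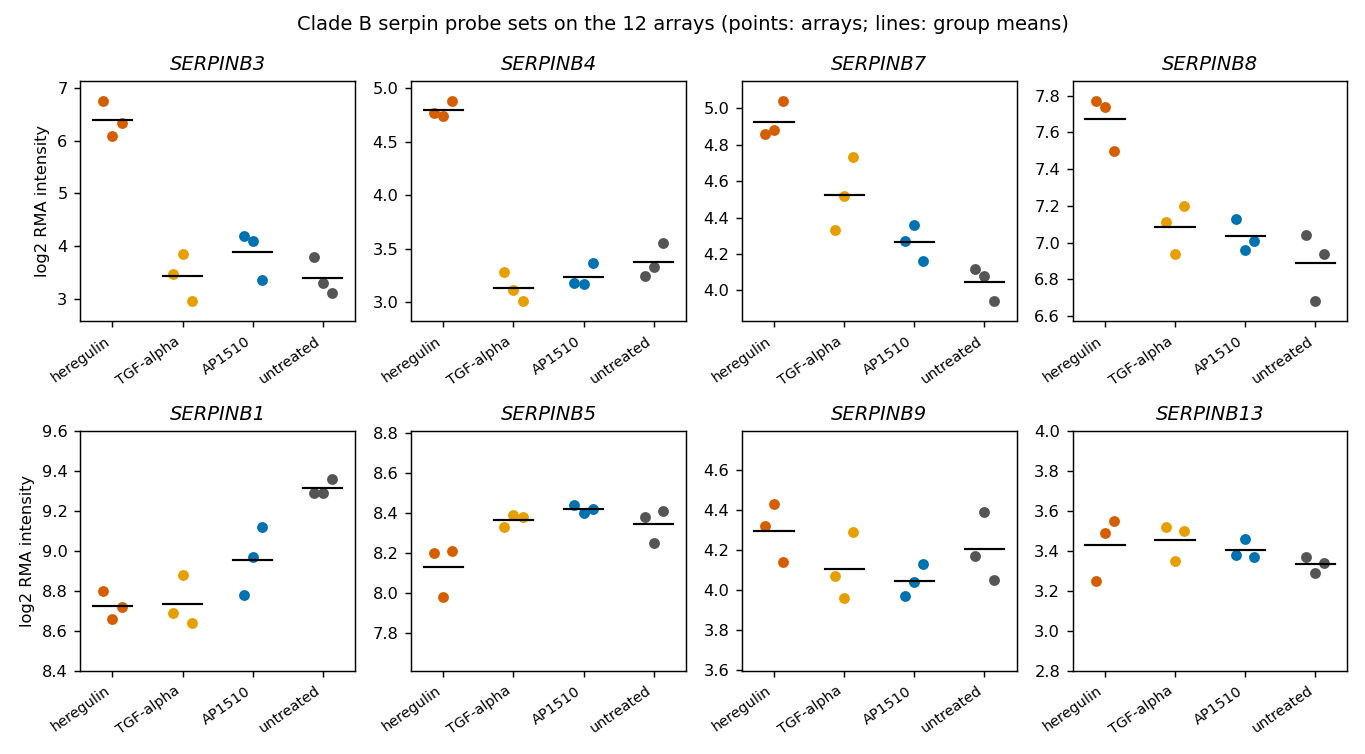
Log2 RMA intensity (vertical axes, which do not start at 0 and differ between panels) of the 8 measured clade B serpins on each array, by treatment group; points are arrays and lines are means of 3. SERPINB3, SERPINB4, SERPINB7 and SERPINB8 stand highest on the 3 heregulin arrays, and SERPINB1 stands highest on the 3 untreated arrays.

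Heregulin against untreated moved most of the 8 measured members, and 0 of the 3 other measured genes of the clade were called. Those 3 are dim on all 12 arrays. The members were picked with group results known, so these counts are not a test of members against the rest. SERPINB3, SERPINB4, SERPINB7 and SERPINB8 rose, SERPINB1 fell, and SERPINB5, SERPINB9 and SERPINB13 did not pass the threshold, an adjusted p of 0.05 in limma's moderated linear model over all genes. These are 5 of 8 members, in a comparison in which 8.5% of all genes passed. By direction, 4 of 8 were higher, where 3.45% of all genes were, and 1 was lower, where 5.06% were. The median log2 change was 0.44 over the 8 members and 0.01 over all genes tested. In bulk RNA such as this, a change in the number of cells of a type and a change in RNA per cell cannot be told apart. Markers moved in the same comparison: of the 7 basal ones 3 were higher with heregulin, KRT5 by 0.82 ± 0.11, KRT14 by 0.63 ± 0.08 and EGFR by 0.60 ± 0.09 on the log2 scale, and 0 were lower. Of 5 endothelial ones KDR was higher by 0.96 ± 0.16, and CDH5 (-0.58 ± 0.14) and PECAM1 (-0.33 ± 0.08) were lower. VWF (0.04 ± 0.10, adjusted p = 0.87) and TEK (0.27 ± 0.11, adjusted p = 0.18) did not pass. CDH5, VWF and TEK lay below the array median on all 12 arrays. The CDH5 call ended on dropping heregulin replicate 1 (adjusted p = 0.064) or untreated replicate 2 (adjusted p = 0.069), and the PECAM1 call on dropping replicates 2 or 3 of heregulin or 1 or 3 of untreated (adjusted p up to 0.1). In limma 0 luminal, 0 leukocyte and 0 fibroblast markers passed, with 3, 0 and 1 at an unadjusted p under 0.05. The mean level of the basal list was 9.96 to 10.1 on heregulin arrays and 9.69 to 9.74 on untreated arrays, and that of the endothelial list 5.45 to 5.58 on heregulin arrays and 5.42 to 5.43 on untreated arrays. The dishes held 1 labelled cell line, and whether these genes mark cells of other types was not tested. The part of any change in cell makeup in the serpin changes was not tested either.

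SERPINB3 inhibits papain-like cysteine proteases such as cathepsins L, S and K. Its probe set (8023696) read 6.75, 6.09 and 6.33 on the heregulin arrays, 3.47, 3.85 and 2.95 on the TGF-alpha arrays, 4.18, 4.1 and 3.35 on the AP1510 arrays and 3.79, 3.29 and 3.11 on the untreated arrays. The lowest heregulin array stands well above every other array, while the TGF-alpha, AP1510 and untreated arrays overlap one another. The log2 change with heregulin was 2.99 ± 0.25 (SE from the fit), or 7.97-fold, with an adjusted p of 9.2e-07. Against TGF-alpha the heregulin level was 7.83-fold higher (log2 change 2.97 ± 0.25, adjusted p = 2.5e-07), and against AP1510 it was 5.72-fold higher (2.51 ± 0.25, adjusted p = 7.1e-06).

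SERPINB4 inhibits chymotrypsin-like serine proteases such as cathepsin G and mast cell chymase. Its probe set (8023688) read 4.77, 4.74 and 4.88 with heregulin, 3.28, 3.12 and 3.01 with TGF-alpha, 3.18, 3.17 and 3.37 with AP1510 and 3.25, 3.33 and 3.55 in untreated cells. The heregulin arrays again lie apart from the other 9, which overlap between TGF-alpha and AP1510 and between each of these and untreated. The rise was 2.68-fold against untreated (log2 change 1.42 ± 0.10, adjusted p = 2.7e-07), 3.16-fold against TGF-alpha (1.66 ± 0.10, adjusted p = 1e-08) and 2.94-fold against AP1510 (1.56 ± 0.10, adjusted p = 9.2e-08). The probe set stayed below the array median even with heregulin. SERPINB3 rose on the same arrays, and the part of its transcript in this signal was not tested.

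SERPINB7, or megsin, was first described in kidney mesangial cells, is strongly expressed in upper epidermis and is the gene mutated in Nagashima-type palmoplantar keratosis. Its probe set (8021623), dim on all 12 arrays, read 4.86, 4.88 and 5.04 with heregulin, 4.33, 4.52 and 4.73 with TGF-alpha, 4.27, 4.36 and 4.16 with AP1510 and 4.12, 4.08 and 3.94 in untreated cells. All 3 heregulin arrays lie above all TGF-alpha arrays, and all treated arrays lie above all untreated ones. It rose with heregulin 1.84-fold against untreated (log2 change 0.88 ± 0.11, adjusted p = 4.5e-05) and 1.58-fold against AP1510 (0.66 ± 0.11, adjusted p = 8.7e-04). Its level was also 1.32-fold higher with heregulin than with TGF-alpha (0.40 ± 0.11, adjusted p = 0.012), a call that ended without TGF-alpha replicate 1 (adjusted p = 0.07) and without heregulin replicate 3 (adjusted p = 0.059).

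SERPINB8 inhibits furin, the proprotein convertase of the secretory pathway, and in humans its loss causes a peeling skin syndrome. Its probe set (8021653) read 7.77, 7.74 and 7.5 with heregulin, 7.11, 6.94 and 7.2 with TGF-alpha, 7.13, 6.96 and 7.01 with AP1510 and 7.04, 6.68 and 6.94 in untreated cells. The heregulin arrays do not overlap the rest, and the other 3 groups overlap each other. SERPINB8 rose with heregulin 1.72-fold against untreated (log2 change 0.78 ± 0.11, adjusted p = 2.1e-04), 1.5-fold against TGF-alpha (0.58 ± 0.11, adjusted p = 9.7e-04) and 1.56-fold against AP1510 (0.64 ± 0.11, adjusted p = 0.0017).

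SERPINB1, the leukocyte elastase inhibitor, blocks elastase, proteinase 3 and cathepsin G of neutrophils and moved the other way. Its probe set (8123598) read 8.8, 8.66 and 8.72 with heregulin, 8.69, 8.88 and 8.64 with TGF-alpha, 8.78, 8.97 and 9.12 with AP1510 and 9.29, 9.29 and 9.36 in untreated cells. Every treated array lies below every untreated array, and heregulin and TGF-alpha arrays overlap. The level fell 1.5-fold with heregulin (log2 change -0.59 ± 0.10, adjusted p = 0.001) and 1.49-fold with TGF-alpha (-0.58 ± 0.10, adjusted p = 2.8e-04). With AP1510 the log2 change was -0.36 ± 0.10 and did not pass (adjusted p = 0.098), though it passed without AP1510 replicate 3 (adjusted p = 0.048).

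**Figure D2:**
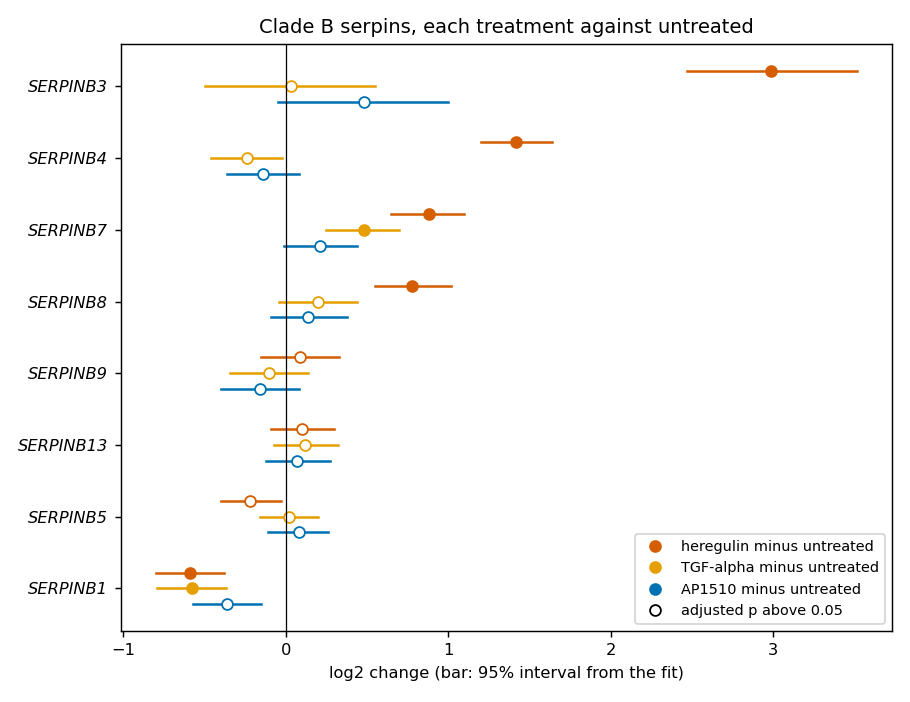
Log2 change (horizontal axis) of each measured clade B serpin with heregulin, TGF-alpha and AP1510 against untreated; bars are 95% intervals from the fit, and open points did not pass an adjusted p of 0.05. Heregulin gave the 4 called rises of SERPINB3, SERPINB4, SERPINB7 and SERPINB8, from 0.78 to 2.99, and the fall of SERPINB1 by 0.59.

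The remaining measured members gave no call in any of the 6 comparisons. SERPINB5 lost the protease-trapping activity of its relatives and is studied as a regulator of adhesion and motility. It read 8.2, 7.98 and 8.21 with heregulin, 8.33, 8.39 and 8.38 with TGF-alpha, 8.44, 8.4 and 8.42 with AP1510 and 8.38, 8.25 and 8.41 in untreated cells. The 3 heregulin arrays are the lowest of the 12, but the differences are small: the log2 change was -0.22 ± 0.09 against untreated (adjusted p = 0.15), -0.24 ± 0.09 against TGF-alpha (adjusted p = 0.062) and -0.30 ± 0.09 against AP1510 (adjusted p = 0.051). The contrast with AP1510 passed under 5 of 8 other settings and that with TGF-alpha under 3 of 8, so SERPINB5 sits at the threshold there.

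SERPINB9, the granzyme B inhibitor with which cytotoxic lymphocytes protect themselves, had group means of 4.3 ± 0.15 with heregulin, 4.11 ± 0.17 with TGF-alpha, 4.05 ± 0.08 with AP1510 and 4.2 ± 0.18 in untreated cells (SD, n = 3 each). SERPINB13, or headpin, a keratinocyte inhibitor of cathepsins K and L, had 3.43 ± 0.16 with heregulin, 3.46 ± 0.088 with TGF-alpha, 3.4 ± 0.05 with AP1510 and 3.33 ± 0.039 in untreated cells. For SERPINB13 the spread within groups is about as large as the distance between means. For SERPINB9 the 3 heregulin arrays lie above the 3 AP1510 arrays, and every other pair of groups overlaps. That log2 difference was 0.25 ± 0.11 (SE from the fit) and did not pass in limma (unadjusted p = 0.043, adjusted p = 0.23). Both probe sets are dim, and a change in a transcript present at very low level may not be detectable in such signals. The F test over the 4 groups, which asks whether a gene differs anywhere among them, passed SERPINB1, SERPINB3, SERPINB4, SERPINB7 and SERPINB8, 5 of 8, where 28.5% of all genes passed. Adjusted p in that test was 0.062 for SERPINB5, 0.34 for SERPINB9 and 0.72 for SERPINB13.

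TGF-alpha against untreated, which asks what the EGFR ligand changes, called 2 of 8 members, while 26% of all genes passed, so the members' share was close to the background. SERPINB7 rose 1.39-fold (log2 change 0.48 ± 0.11, adjusted p = 0.0027) and SERPINB1 fell as given above. That is 1 of 8 higher, where 12.5% of genes were, and 1 of 8 lower, where 13.4% were. SERPINB3 changed by 0.03 ± 0.25, with a 95% interval of -0.5 to 0.55, and SERPINB4 by -0.24 ± 0.10 (adjusted p = 0.11). The upper ends of both intervals lie far below the rises measured with heregulin.

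For AP1510, the homodimer inducer, limma called 0 of 8 members against untreated, in a comparison in which 1.47% of all genes passed (0.771% higher and 0.7% lower). At an unadjusted p under 0.05 the count was 1, SERPINB1. SERPINB3 had a mean of 3.88 ± 0.46 with AP1510 and 3.4 ± 0.35 in untreated cells (SD, n = 3 each), a log2 change of 0.48 ± 0.25 with an adjusted p of 0.5. Replicates 1 and 2 read above all untreated arrays and replicate 3 within them. SERPINB7 lay above the untreated arrays on all 3 AP1510 arrays, by 0.21 ± 0.11 on average (adjusted p = 0.48).

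Between treatments, heregulin against TGF-alpha called 4 of 8 members, all higher, where 21.6% of all genes passed and 9.88% were higher. Heregulin against AP1510 called the same 4 genes, SERPINB3, SERPINB4, SERPINB7 and SERPINB8, all higher, where 7.23% of all genes passed, 3.27% higher and 3.95% lower. TGF-alpha against AP1510 called 0 of 8 in limma, while 21.6% of all genes passed (11.2% higher and 10.4% lower). Here 2 members had an unadjusted p under 0.05, SERPINB1 and SERPINB7. SERPINB1 passed once AP1510 replicate 1 was dropped (adjusted p = 0.041), and SERPINB7 once TGF-alpha replicate 1 was dropped (adjusted p = 0.03). SERPINB1 differed by -0.01 ± 0.10 between heregulin and TGF-alpha, with a 95% interval of -0.22 to 0.2. The comparisons with a group in common share its arrays and are not separate evidence.

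**Figure D3:**
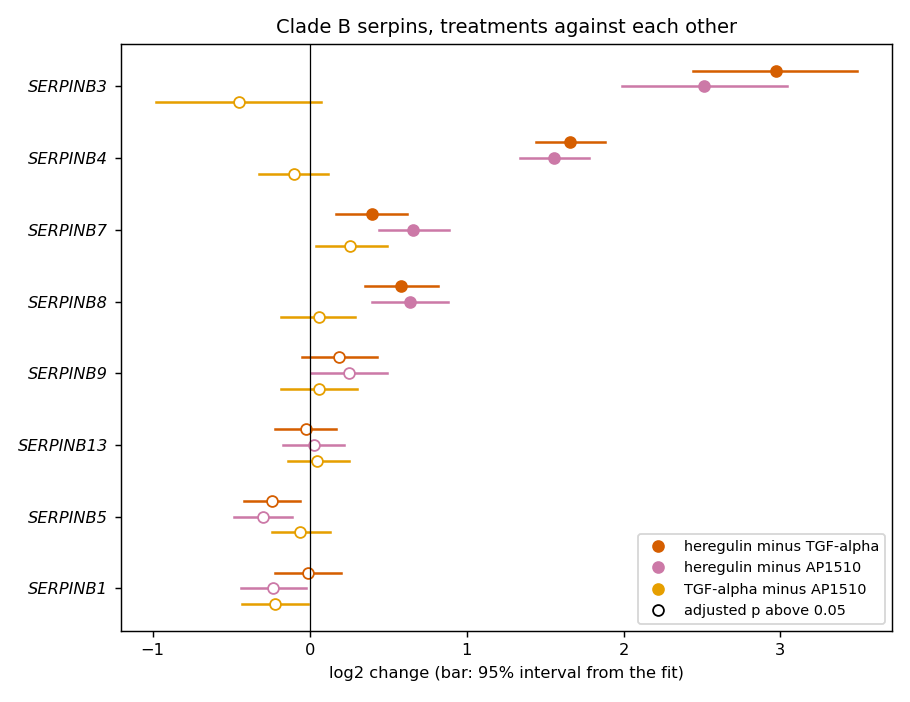
Log2 difference (horizontal axis) of each measured clade B serpin between treatments: heregulin minus TGF-alpha, heregulin minus AP1510 and TGF-alpha minus AP1510; bars are 95% intervals from the fit and open points did not pass an adjusted p of 0.05. The 8 called points all belong to heregulin and to SERPINB3, SERPINB4, SERPINB7 and SERPINB8, from 0.40 to 2.97.

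All 4 members that rose with heregulin lie in the chromosome 18 cluster, as do all measured members but SERPINB1 and SERPINB9. The 4 are not a single run of neighbours. In RefSeq order the cluster reads SERPINB5, SERPINB12, SERPINB13, SERPINB4, SERPINB3, SERPINB11, SERPINB7, SERPINB2, SERPINB10 and SERPINB8. SERPINB11 lies between SERPINB3 and SERPINB7 and changed by -0.14 ± 0.13 (adjusted p = 0.6), and SERPINB10, next to SERPINB8, changed by -0.04 ± 0.10 (adjusted p = 0.87). SERPINB12, at the other end beside SERPINB5, changed by 0.08 ± 0.11 (adjusted p = 0.74). These 3 genes complete the measured family, are dim on all 12 arrays, and gave 0 calls in limma in all 6 comparisons, with 0 at an unadjusted p under 0.05. Over all genes 1.47% to 26% passed in these comparisons, so 0 of 3 does not set them apart. SERPINB6 is not analysed here. The nearest measured genes outside the cluster, chosen after the values were seen, also gave no call with heregulin: VPS4B changed by -0.16 ± 0.09 on the SERPINB5 side and LINC00305 by -0.01 ± 0.11 on the SERPINB8 side.

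**Figure D4:**
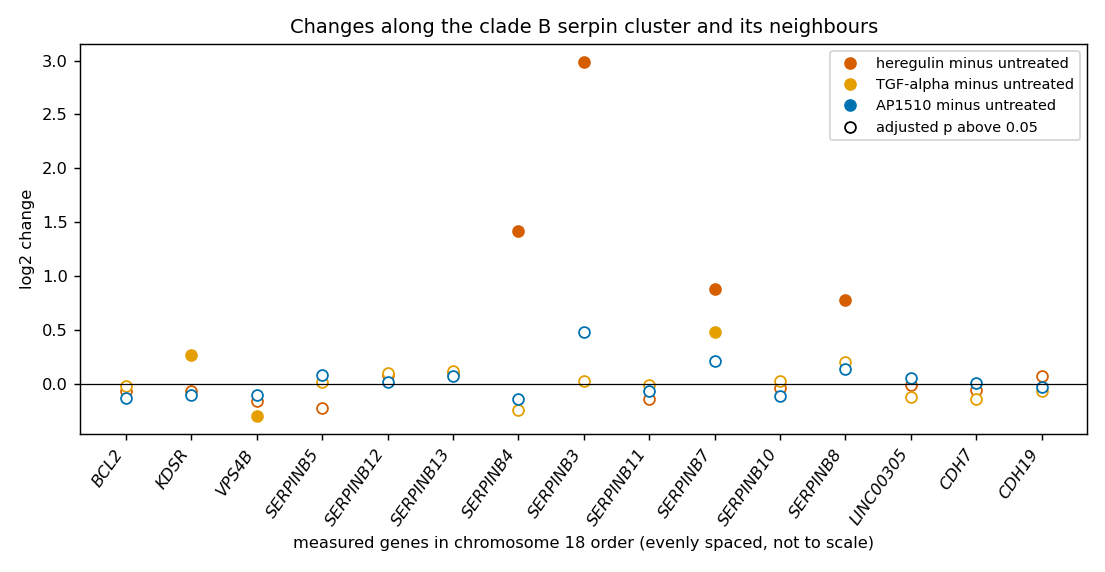
Log2 change against untreated (vertical axis) with heregulin, TGF-alpha and AP1510 for the measured genes of the chromosome 18 serpin cluster and 3 measured neighbours on each side, in genome order and evenly spaced; open points did not pass an adjusted p of 0.05. With heregulin the called genes are SERPINB4, SERPINB3, SERPINB7 and SERPINB8, and SERPINB11 and SERPINB10, which did not pass, lie between them.

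The 250 bases before each annotated start of the measured members were searched for the AP-1 motif TGANTCA, which reads alike on both strands, and for the TATA box TATAAA on both strands. AP-1, a dimer of FOS and JUN proteins, is a common end point of growth factor signalling. Among 35116 promoter windows of this length 6.57% hold the AP-1 motif and 10.7% the TATA box. SERPINB3 and SERPINB4, which rose most, hold neither motif in these windows. SERPINB8 holds 2 AP-1 matches, starting 185 and 28 bases before its annotated start. It is shown with these in capitals as an example of a called rise with matches (plus strand, chr18:63969831-63970080). SERPINB7, described below, also combines a called rise with matches.
SERPINB8: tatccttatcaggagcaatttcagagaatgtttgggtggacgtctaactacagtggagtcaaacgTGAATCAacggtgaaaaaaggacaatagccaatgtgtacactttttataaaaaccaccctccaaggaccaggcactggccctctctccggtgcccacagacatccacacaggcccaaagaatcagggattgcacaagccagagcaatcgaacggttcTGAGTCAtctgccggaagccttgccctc
SERPINB7 has 3 annotated starts, of which 2 have windows with 2 AP-1 matches each and 1 has none. SERPINB5 and SERPINB13, which gave no call, hold 1 AP-1 match each, and SERPINB1 and SERPINB9 hold none. The TATA box has 2 overlapping matches in SERPINB8, 2 in the window of the third SERPINB7 start and 1 in SERPINB9, and none in the other measured members. The AP-1 motif is thus found both in members that rose and in members without a call, and a match describes letters, not binding.

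The genes whose levels ran most like the members were taken by Pearson correlation over the 12 arrays, 3 for each of the 3 members with the lowest p in the F test. Because the heregulin arrays stand apart for these members, the coefficients mostly reflect that gap. SERPINB4 ran closest to SAA2, an acute phase serum amyloid gene (r = 0.983), HSD17B2, which oxidises oestradiol and testosterone (r = 0.983), and WFDC2, a secreted whey acidic protein domain gene (r = 0.98). SERPINB3 ran closest to VSIG10 (r = 0.989), GPC6, a glypican (r = 0.971), and SAA1 (r = 0.97). With heregulin SAA1 rose by 3.48 ± 0.11 on the log2 scale (adjusted p = 1.9e-11), with a mean of 10.7, against 7.21 in untreated cells. SAA2 rose by 3.26 ± 0.11 and HSD17B2 by 2.50 ± 0.11. SERPINB7, the member with a step at TGF-alpha as well, ran closest to PID1 (r = 0.95), whose means were 7.31 with heregulin, 6.63 with TGF-alpha, 6.05 with AP1510 and 5.48 in untreated cells, then SLC7A7 (r = 0.948) and CDH4-AS2 (r = 0.945).

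Proteases that clade B serpins inhibit, or may meet, were called lower more often than higher against untreated with heregulin and with TGF-alpha, but not with AP1510. Of 20 listed and measured, heregulin called 0 higher and 6 lower against untreated, where 3.45% of all genes were higher and 5.06% lower. TGF-alpha called 2 higher and 8 lower, where 12.5% of all genes were higher and 13.4% lower, so the higher count was near the background. Between the ligands the split was the other way: heregulin against TGF-alpha called 4 higher (CTSS, CTSH, CASP1 and CASP4) and 1 lower (CTSV), where 9.88% were higher and 11.8% lower, and the lower count was 2 when heregulin replicate 1 was dropped. The cysteine protease gene CTSS, a target of SERPINB3, fell by a factor of 4.47 with TGF-alpha (adjusted p = 1.9e-09). Its level was 4.18-fold higher with heregulin than with TGF-alpha (adjusted p = 2.6e-09). The arrays read 7.72, 7.48 and 7.8 with heregulin, 5.67, 5.59 and 5.55 with TGF-alpha, 7.5, 7.77 and 7.58 with AP1510 and 7.82, 7.55 and 7.92 in untreated cells for CTSS. TGF-alpha arrays stand apart at the low end and the other 3 groups overlap. CTSH, cathepsin H, fell 2.16-fold with heregulin (adjusted p = 7.4e-06) and 4.29-fold with TGF-alpha (adjusted p = 2.1e-09). The epidermal kallikrein genes KLK7 and KLK5 fell 3.02-fold and 2.72-fold with heregulin (adjusted p = 9.9e-06 and 1.3e-04). With TGF-alpha they fell 2.99-fold and 2.87-fold (adjusted p = 2e-06 and 1.6e-05). The heregulin arrays spread widely for KLK5, at 7.46, 7.49 and 8.48. The TGF-alpha count of higher genes, CTSV and PCSK6, was 1 when replicate 3 of untreated or of TGF-alpha was dropped. AP1510 called 1 higher, CTSV, and 1 lower, PLAU, where 0.771% of all genes were higher and 0.7% lower. The PLAU call ended when any 1 of 8 arrays was dropped: each untreated and each TGF-alpha replicate, and AP1510 replicates 1 and 2 (adjusted p up to 0.14). When heregulin replicate 3 was dropped, 2 were called higher. The median log2 change over the list was -0.05 with heregulin and -0.14 with TGF-alpha, against 0.01 and -0.01 over all genes.

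Several protease inhibitors outside the serpins rose with heregulin. Of 14 measured, heregulin called 7 higher and 1 lower against untreated, and 10 higher and 1 lower against TGF-alpha. Without 1 array the higher counts were 5 to 7 against untreated and 8 to 11 against TGF-alpha. Over all genes 3.45% were higher and 5.06% lower against untreated, and 9.88% higher and 11.8% lower against TGF-alpha. Of the 10, SLPI, SPINT1, SPINT2 and A2ML1 did not pass with heregulin against untreated. With TGF-alpha against untreated SLPI, SPINT1, SPINT2 and TIMP2 were called lower, SPINT1 by 0.95 ± 0.09 on the log2 scale. PI3, or elafin, an elastase inhibitor of squamous epithelium, read 9.77, 9.59 and 9.16 with heregulin, 6.43, 6.81 and 6.65 with TGF-alpha, 6.93, 7.18 and 7.12 with AP1510 and 7.07, 7.05 and 6.87 in untreated cells. Only the heregulin arrays stand apart upward, as for SERPINB3, and the rise was 5.71-fold against untreated (log2 change 2.51 ± 0.14, adjusted p = 1.3e-08). WFDC2 rose 2.60-fold (1.38 ± 0.08, adjusted p = 2.4e-08). SLPI, a leukocyte protease inhibitor of mucosal secretions, fell with TGF-alpha by 2.06-fold (adjusted p = 1.3e-07). It did not pass with heregulin against untreated (log2 change 0.17 ± 0.08, adjusted p = 0.27). TIMP3, an inhibitor of matrix metalloproteinases, fell with heregulin by 2.46-fold (adjusted p = 3.2e-06), with TGF-alpha by 3.10-fold (adjusted p = 4.9e-08) and with AP1510 by 1.80-fold (adjusted p = 0.0022). TGF-alpha called 1 higher, CSTA, and 5 lower, where 12.5% of all genes were higher and 13.4% lower. The higher count was 0 when untreated replicate 1 or TGF-alpha replicate 2 was dropped. The count was 3 when untreated replicate 2 was dropped. AP1510 called 0 higher and 1 lower, where 0.771% of all genes were higher and 0.7% lower. The median log2 change was 0.25 with heregulin and -0.20 with TGF-alpha.

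**Figure D5:**
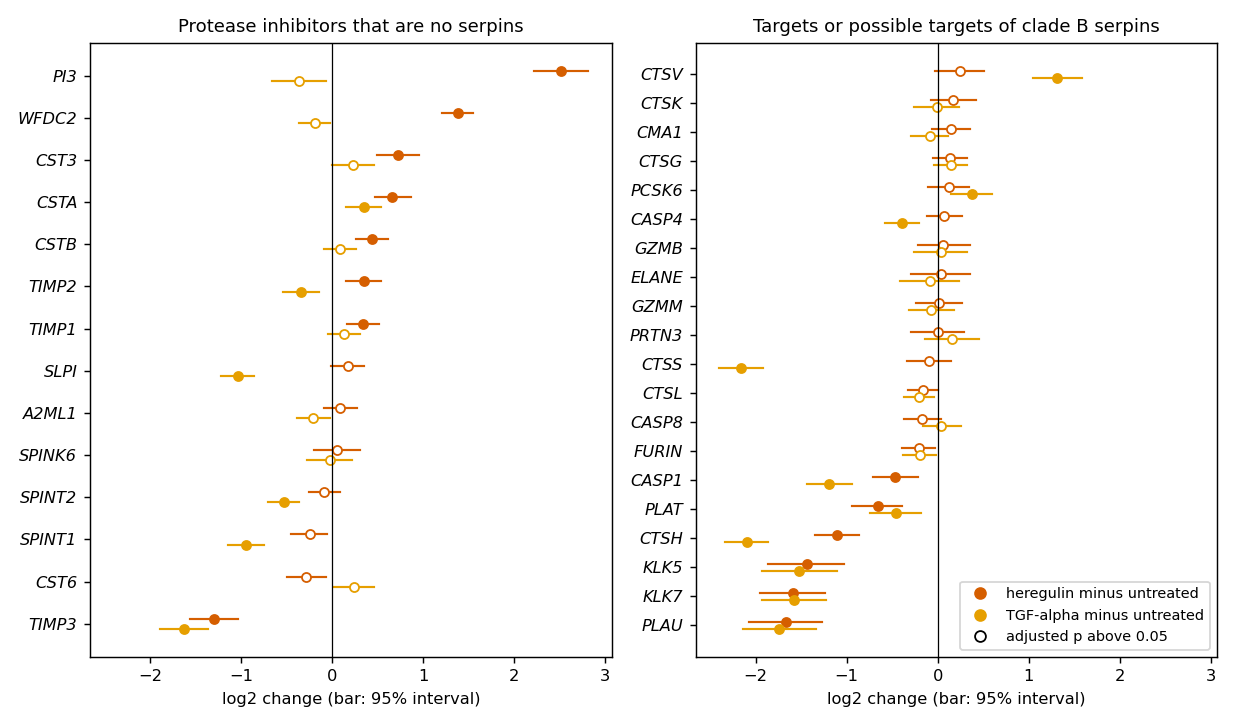
Log2 change against untreated (horizontal axes) with heregulin and TGF-alpha for 14 protease inhibitors that are not serpins (left) and 20 proteases listed as targets or possible targets of clade B serpins (right), ordered by the heregulin change; bars are 95% intervals and open points did not pass an adjusted p of 0.05. PI3 and WFDC2 lie at 2.51 and 1.38 with heregulin, and 6 proteases fell with heregulin.

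Serpins of other clades, mostly secreted, were read as the nearest relatives. Of 19 measured, heregulin called 2 higher and 1 lower against untreated, where 3.45% of all genes were higher and 5.06% lower. Of these 19, 14 lay at or under the array median on all arrays. A change in such dim signals may not be detectable, so the uncalled genes are not shown to be unresponsive. SERPINA3, or alpha-1-antichymotrypsin, rose 8.42-fold with heregulin (log2 change 3.07 ± 0.15, adjusted p = 2e-09) and 4.89-fold with TGF-alpha (2.29 ± 0.15, adjusted p = 1.3e-08). SERPINA1, or alpha-1-antitrypsin, rose 2.84-fold with heregulin (adjusted p = 1.2e-07) and 1.91-fold with TGF-alpha (adjusted p = 3e-06). Both were also called higher in heregulin than in TGF-alpha cells, by 1.72-fold and 1.49-fold. SERPINE2, or protease nexin 1, split the ligands: it read 5.36, 5.03 and 5.26 with heregulin, 7.78, 7.63 and 7.79 with TGF-alpha, 5.17, 5.55 and 5.99 with AP1510 and 6.7, 6.21 and 6.51 in untreated cells. TGF-alpha arrays are the highest, and untreated arrays lie between them and the rest. The level was 2.39-fold lower with heregulin (adjusted p = 1.2e-04) and 2.39-fold higher with TGF-alpha (adjusted p = 2.5e-05). TGF-alpha called 4 higher and 2 lower, SERPING1 and SERPINH1, and these 6 of 19 are close to the 26% of all genes called. The number lower was 1 on dropping replicate 1 of untreated or of TGF-alpha, any AP1510 replicate or heregulin replicate 3, and 0 on dropping untreated replicate 2 or replicates 2 or 3 of TGF-alpha. AP1510 called SERPINA5 higher and SERPINE2 lower, where 0.771% of all genes were higher and 0.7% lower. The first call ended on dropping replicates 2 or 3 of untreated or 1 of AP1510 (adjusted p up to 0.086), and the second on dropping replicates 1 or 3 of untreated or 1 of AP1510 (adjusted p up to 0.07).

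Plasminogen activation, the pathway that SERPINB2 and SERPINE2 inhibit, was measured without SERPINB2. Of 7 measured genes heregulin called 0 higher and 4 lower against untreated, and TGF-alpha 2 higher and 3 lower. Over all genes 3.45% were higher and 5.06% lower with heregulin, and 12.5% higher and 13.4% lower with TGF-alpha. PLAU, the urokinase gene, read 6.1, 6.41 and 6.4 with heregulin, 6.24, 6.16 and 6.31 with TGF-alpha, 6.51, 7.31 and 7.57 with AP1510 and 8.09, 7.91 and 7.93 in untreated cells. Heregulin and TGF-alpha arrays overlap at the low end, and AP1510 arrays lie between them and untreated. The fall was 3.19-fold with heregulin (adjusted p = 2.3e-05) and 3.33-fold with TGF-alpha (adjusted p = 2.9e-06). PLAUR, the urokinase receptor gene, fell 1.51-fold with TGF-alpha (adjusted p = 1.5e-04). S100A10, a plasminogen-binding surface protein gene, rose 1.61-fold (adjusted p = 6.1e-06). AP1510 called 2 lower, PLAU and SERPINE2, where 0.7% of all genes were lower. That count was 1 on dropping replicate 2 of untreated or of AP1510 or any TGF-alpha replicate, and 0 on dropping replicates 1 or 3 of untreated or 1 of AP1510.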

How the data were processed

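RNA from 12 dishes of 1 cell line, labelled with biotin per the labels' protocols, was hybridised to Affymetrix arrays. What the authors deposited is a table on the log2 scale, summarised per probe set with RMA, per the submitters' processing notes, which give no version. RMA equalises the arrays' distributions and compresses differences near background, so folds of dim probe sets may be understated. Probe sets naming several genes were left out, symbols were updated through Entrez IDs to RefSeq names (19429 of 19460 probe sets with 1 gene), and each gene was read by its probe set with the highest mean. limma 3.58.1 in R 4.3.3 fitted 12 arrays in 1 model with a mean per group, no block and no filter, leaving 8 residual and 7.55 prior degrees of freedom. The 6 contrasts and an F test were adjusted by Benjamini-Hochberg over 18417 genes, at 0.05, two-sided. Arrays are numbered 1 to 3 within a group in deposit order, which pairs nothing. The labels give triplicate dishes, so p-values measure spread between these. The number of arrays limits precision. The procedure was tested on simulated data.

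Members and lists were chosen with earlier results of these data known. All members are named, and of other lists up to 4 genes with the lowest F test p, plus any that a small count required. Other settings were repeated quantile normalization, median centring, a trended robust prior, array weights, no dim genes, mean probe sets, all probe sets, only the 2 groups compared, and each array left out.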

Additional observations from a re-analysis of the deposited data

How the results depend on the processing

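Of the 15 member changes that passed, 2 refits ended a call, both for SERPINB7 between heregulin and TGF-alpha, and in none of the 293 other fits of these 15 did the sign turn. The number of members called with heregulin against untreated was 5 in each refit without 1 array (range 5 to 5). With dim genes left out it was 3 of the 4 members that stay, since SERPINB4 and SERPINB7 then leave the fit. There 1721 of 10290 genes passed. With TGF-alpha against untreated the number of members called was 2 to 2 without 1 array. With dim genes left out it was 1 of 4, since SERPINB7 leaves, where 4731 of 10290 genes passed. With AP1510 against untreated the number of members called was 0 to 1 without 1 array and 1 with a trended robust prior. Each time it was SERPINB1, and the cause was not tested. Without 1 array the number called was 3 to 4 for heregulin against TGF-alpha and 4 to 4 for heregulin against AP1510. It was 0 to 1 for TGF-alpha against AP1510 and 5 to 5 for the F test. Signs turned for 8 of the 33 member changes that did not pass, all near 0. With array weights SERPINB3 with TGF-alpha against untreated was 0.00, SERPINB9 with heregulin against untreated -0.01 and SERPINB13 for heregulin against TGF-alpha 0.07. After repeated quantile normalization SERPINB5 with TGF-alpha against untreated was 0.00, SERPINB13 for heregulin against AP1510 -0.01 (also -0.01 after median centring) and SERPINB1 for heregulin against TGF-alpha 0.04. Without 1 array the ranges were -0.19 to 0.26 for SERPINB3 and -0.03 to 0.05 for SERPINB5 with TGF-alpha against untreated, 0.00 to 0.13 for SERPINB8 and -0.03 to 0.13 for SERPINB9 in TGF-alpha against AP1510, -0.03 to 0.12 for SERPINB13 in heregulin against AP1510, and -0.06 to 0.06 for SERPINB1 and -0.08 to 0.07 for SERPINB13 in heregulin against TGF-alpha. For AP1510 against untreated, testing all probe sets ended the calls of SERPINA5, SERPINE2 and PLAU (adjusted p = 0.083, 0.086 and 0.16), as more features are then adjusted for, and other inhibitors called lower numbered 1 as reported and 3 with a trended robust prior or with dim genes left out. Target proteases called lower for heregulin against TGF-alpha numbered 1 as reported and 2 after repeated quantile normalization, median centring or array weights. No paired analysis was possible because the labels give no replicate numbers that groups share. Dim signals limit what can be said of SERPINB4, SERPINB7, SERPINB9 and SERPINB13.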

Other observations

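On chromosome 6 the member order is SERPINB1, SERPINB9 and SERPINB6, with the pseudogene SERPINB9P1 between the first 2. With heregulin against untreated SERPINB1 fell by 0.59 on the log2 scale, while SERPINB9P1 changed by -0.38 ± 0.17 (adjusted p = 0.2), SERPINB9 by 0.09 ± 0.11 (adjusted p = 0.72) and the nearest measured gene on the other side, WRNIP1, by 0.08 ± 0.09 (adjusted p = 0.67).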
